A study of Mus musculus with 6 samples.

Results

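The proteasome genes described here are the 46 rows, of 13595 in the deposited gene table, whose symbol follows the naming pattern of proteasome subunits and cofactors (Psma, Psmb, Psmc, Psmd, Psme, Psmf or Psmg and a number). The pattern matched 49 rows, from which the 3 immunoproteasome subunits Psmb8, Psmb9 and Psmb10 were taken out. Of the 46, 15 belong to the core, 17 to the base and lid, 6 are activators or an inhibitor, and 7 are assembly factors. The remaining gene, Psmc3ip, shares the letters of the name only and encodes a cofactor of meiotic recombination. Poly(A)-enriched RNA was sequenced from CD31-positive liver cells of C57BL6/J mice aged 4 weeks, selected by this endothelial surface protein and kept in primary culture. The male group had 3 libraries and the female group had 3, numbered 4, 5 and 6 in each. Every culture in both groups received 100 µM indoxyl sulfate, a tryptophan metabolite that activates the aryl hydrocarbon receptor, and 6 hours of hypoxia with nutrient deprivation. No untreated library was analysed here, so the contrast available is that of sex label under treatment.

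The proteasome is the protease that degrades ubiquitin-tagged proteins in the cytosol and nucleus. Its barrel-shaped core has outer rings of alpha subunits that gate the entrance and inner rings of beta subunits, some of which cut peptide bonds. A regulatory particle caps the barrel: its base holds a ring of ATPases that unfold substrates, and its lid removes the ubiquitin chain. Other caps, such as the PA28 and PA200 activators, open the gate without unfolding ubiquitinated substrates, and dedicated chaperones assist assembly. In endothelial cells, as elsewhere, interferon induces immunoproteasome forms that take the place of the catalytic beta subunits, and raises PA28 alpha and beta.

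The values are normalized read counts scaled between libraries but not divided by transcript length. Summed over genes, a library held 22303270 to 31189363 reads, and none of the 46 genes had fewer than 66 reads in a library. Male replicate 4 stood apart: over all tested genes its median absolute log2 difference was 0.19 from male 5 and 0.18 from male 6, against 0.07 between those 2 and 0.08 to 0.11 among the female libraries. The labels were checked with sex-linked genes. Xist ran from 234 to 324 in the female-labelled libraries and stayed at or under 0.458 in the male-labelled ones. Y-linked transcripts were nevertheless present in the female-labelled libraries, with Ddx3y between 48.5 and 57.7 there, against 47.2 to 76.3 in the male-labelled ones. Ddx3y and Uty overlapped between labels and were not called (limma adjusted p 0.657 and 0.342), while Eif2s3y, at 29.4 to 30.2 against 55.3 to 61.2, and Kdm5d, at 17.6 to 20.8 against 30.7 to 37.5, were lower. What the sex labels stand for is therefore uncertain, and "female" and "male" name library labels throughout. Nothing in the labels says whether the numbered replicates are separate mice or wells, so p-values measure the spread between these libraries, which may be technical.

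Markers of cell type moved with the label. Of 15 endothelial markers 14 were tested, with 11 lower and 2 higher (Eng and Ptprb) in the female libraries. Their summed value ran from 1278 to 1341 there and from 2393 to 2512 in the male libraries. Pecam1, the gene of the selected CD31 protein, read 405, 391 and 423 in male replicates 4, 5 and 6. In female replicates 4, 5 and 6 Pecam1 read 73.5, 73.8 and 74.5, 18.2% of the male mean. Of 10 sinusoidal markers 5 were tested, 2 higher (Gata4 and Maf) and 3 lower, with sums of 46.5 to 48.2 against 498 to 536. That sum is mostly Lyve1, without which it was 41.9 to 43.1 against 23.1 to 27.9, in the opposite direction. Of 14 stellate, mural and fibroblast markers 12 were tested, 4 higher and 8 lower, and their sums overlapped (3504 to 4208 against 2893 to 3724). Within that list the moves were large and opposed: the contractile genes Acta2 (21.5 times the male mean), Tagln (20.3 times) and Myh11 (75.01 times) were higher, while Col3a1 (17.9% of the male mean) and Pdgfrb (10.8%) were lower. Macrophage markers summed to 13.2 to 15.7 against 7.51 to 9.99, with Emr1 at 0 in every library, and hepatocyte markers to at most 1.22 in any library. Of 5 cholangiocyte markers 4 were tested, 3 lower (Spp1, Krt19 and Sox9) and Krt7 higher, with sums of 509 to 610 against 1637 to 2484 and Epcam at most 0.522 in any library. Of 8 proliferation genes, all tested, 6 were lower and 2 higher (median log2 fold change -0.34), and their sums overlapped at 1230 to 1442 against 1108 to 1340. Without Mki67, which was higher, those sums were 668 to 774 against 921 to 934 and did not overlap. Of the 6 lymphocyte markers, none was analysed here. In bulk RNA, a change in the share of a cell type and a change in RNA per cell cannot be told apart, and the part of these markers in the proteasome values was not tested.

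All 46 genes passed the filter on low values (3 or more libraries at 1 or above) and were tested with limma on log2(value + 1), with p-values adjusted over all 12568 tested genes. At an adjusted p under 0.05, 33 of 46 (71.7%) differed between the labels and are referred to as called. That share is near the 69.3% called over all tested genes, so it is not a result about the proteasome genes. By direction, 25 (54.3%) were higher in the female libraries and 8 (17.4%) lower, where 34.6% of all tested genes were higher and 34.6% lower. Their median log2 fold change was 0.19, against 0.01 over all tested genes. In 39 of 46 genes (84.8%) the 3 female values lay entirely to one side of the 3 male values, 28 above and 11 below, against 74.1% of all tested genes (37.1% above and 37.0% below). The sizes were small: the median absolute log2 fold change was 0.31, and 2 of the 46 (4.35%) reached an absolute value of 1, against 20.6% of all tested genes. Of the 25 that rose, 18 rose by less than 1.5 times. Together the 46 genes took 0.380% to 0.402% of the normalized counts of a male library and 0.492% to 0.501% of a female library.

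**Figure D1:**
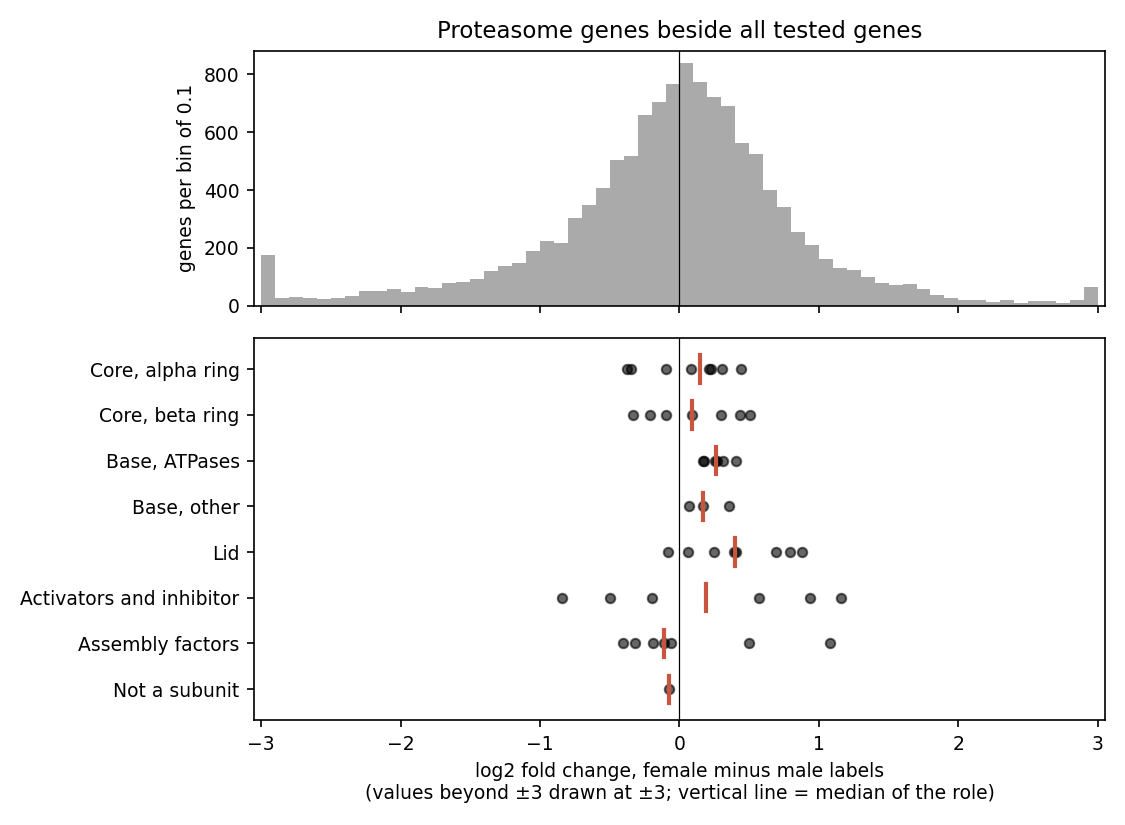
The upper panel counts all 12568 tested genes in bins of 0.1 of the log2 fold change (female minus male label), and the lower panel places each of the 46 proteasome genes by role, with a vertical line at the median of the role. The proteasome genes lie between -0.85 and 1.16, all 6 ATPases are right of 0, and the activators spread widest.

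Counts were set out by role, without a test between roles. In the regulatory particle 13 of 17 genes rose and 0 fell, and in the constitutive core 7 of 14 rose and 3 fell, beside 34.6% higher, 34.6% lower and 69.3% called over all tested genes. The 17 regulatory genes summed to 2471, 2390.4 and 2379 in male replicates 4, 5 and 6 and to 3018, 3066 and 3007 in female replicates 4, 5 and 6, so that the female mean was 1.26 times the male mean. The lid alone went from 883, 879 and 872 to 1217, 1205 and 1193, a ratio of 1.37. The 14 core genes went from 1429, 1487 and 1502 to 1550.5, 1591 and 1549, a ratio of 1.06. Library sums did not overlap between labels for the regulatory particle, the lid or the core. The 7 beta genes alone did overlap, at 623, 658 and 665 against 673, 676 and 641. A sum weights abundant and long transcripts most, and these sums carry no test.

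**Figure D2:**
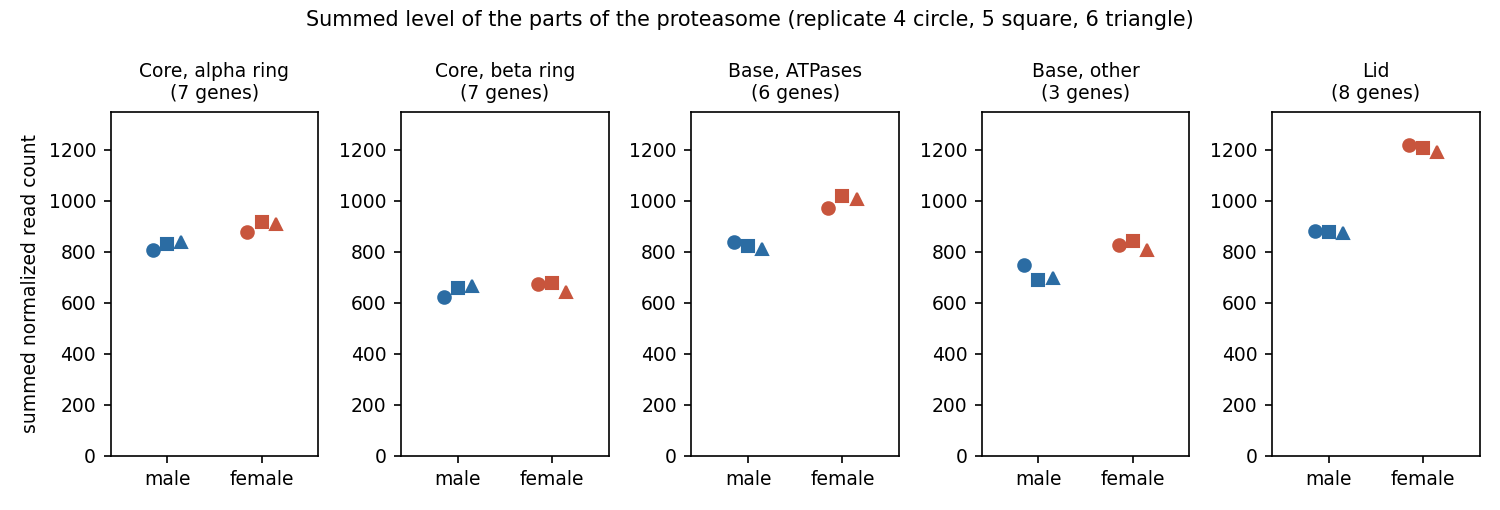
Summed normalized read count (vertical axis from 0) of the genes of each part of the proteasome (alpha ring without Psma8) in each library, male labels at left and female labels at right. The lid goes from at most 883 in the male libraries to at least 1193 in the female libraries.

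**Figure D3:**
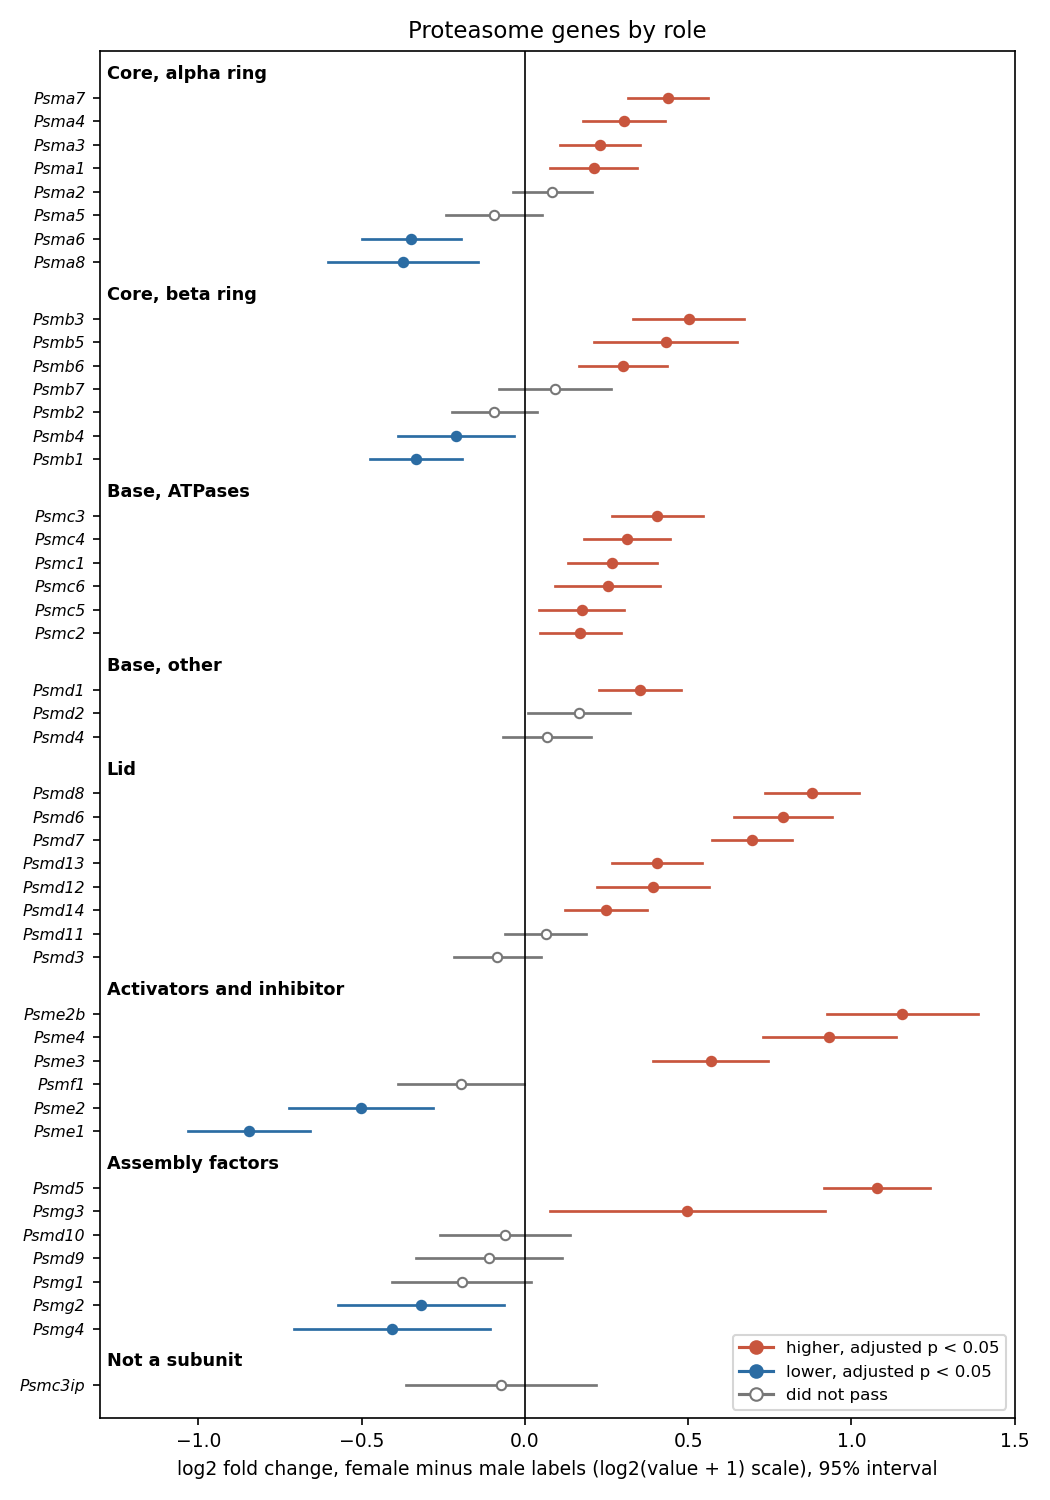
The log2 fold change (female minus male label) of each of the 46 genes with its 95% interval from limma, ordered within roles. Filled points passed the adjusted p threshold of 0.05, 25 to the right of 0 and 8 to the left.

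Proximal promoters of the genes the results turn on are shown as letters near the start of transcription. A link of these letters to the direction of the difference was not tested. RefSeq windows (GRCm38.p6, 250 bases before to 50 after the start) were matched by symbol for 38 of the 46 genes, but not for Psma8, Psmb1, Psmb2, Psmb7, Psmc3, Psmd3, Psmd7 and Psmg2. Both strands were searched for TGACNNNGC (the element bound by NRF1 and NRF2 with small MAF proteins), CCAAT (NF-Y), CCGGAA (ETS factors) and an interferon-response element (GAAA, any 2 bases, GAAA). The printed part covers 80 bases before to 20 after the start, with every match in capitals:
Psmb5 (GRCm38.p6 chr14:54617976-54618075, minus strand): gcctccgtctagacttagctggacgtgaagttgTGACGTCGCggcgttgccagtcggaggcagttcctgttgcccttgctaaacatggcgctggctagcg
Psmb6 (GRCm38.p6 chr11:70525277-70525376, plus strand): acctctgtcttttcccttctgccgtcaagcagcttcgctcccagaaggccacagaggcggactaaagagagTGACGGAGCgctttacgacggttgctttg
Psme4 (GRCm38.p6 chr11:30771695-30771794, plus strand): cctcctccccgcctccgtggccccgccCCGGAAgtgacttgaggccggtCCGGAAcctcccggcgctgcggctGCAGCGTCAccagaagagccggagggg
Psmd6 (GRCm38.p6 chr14:14120926-14121025, minus strand): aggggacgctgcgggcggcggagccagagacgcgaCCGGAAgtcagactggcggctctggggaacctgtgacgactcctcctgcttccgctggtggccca
Psmd12 (GRCm38.p6 chr11:107479448-107479547, plus strand): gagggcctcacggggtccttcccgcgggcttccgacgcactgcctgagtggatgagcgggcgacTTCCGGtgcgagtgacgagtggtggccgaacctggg
Psmd13 (GRCm38.p6 chr7:140882314-140882413, plus strand): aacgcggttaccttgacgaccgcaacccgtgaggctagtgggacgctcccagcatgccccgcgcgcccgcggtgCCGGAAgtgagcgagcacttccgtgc
Psmd8 (GRCm38.p6 chr7:29180654-29180753, minus strand): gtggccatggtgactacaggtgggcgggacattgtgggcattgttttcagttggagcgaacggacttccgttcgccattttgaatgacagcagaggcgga
Psmd5 (GRCm38.p6 chr2:34870943-34871042, minus strand): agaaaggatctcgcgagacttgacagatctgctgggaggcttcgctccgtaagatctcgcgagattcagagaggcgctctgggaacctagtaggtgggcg
Psme1 (GRCm38.p6 chr14:55578414-55578513, plus strand): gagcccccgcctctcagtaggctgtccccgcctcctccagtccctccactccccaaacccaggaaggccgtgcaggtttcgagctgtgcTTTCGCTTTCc
Psmb5 and Psmb6 show an NRF1-type match, at positions -47 to -39 and -9 to -1, where 1 is the start base and -1 the base before it. Psme4 has an NRF1-type match across the start and 2 ETS matches before it. Psmd6, Psmd12 and Psmd13 each show an ETS match, and Psme1 an interferon-response match at 10 to 19. The 2 windows of Psme2, its partner, hold no match to that or any other of these motifs. Psmd8 and Psmd5, which rose most among lid genes and assembly factors, hold none of the 4 motifs in these letters.

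Counted over the full windows, the ETS letters occurred in 21 of 38 proteasome genes (55.3%), against 14.9% of all 32851 promoter windows and 26.9% of the windows of tested genes. By direction, 10 of the 23 higher genes with a window held them, 2 of the 5 lower genes and 9 of the 10 that did not pass. The NRF1-type letters occurred in 6 genes (15.8%), against 12.4% of all windows and 14.3% of those of tested genes, a similar share. They were in 5 of the 23 higher genes (Psmb5, Psmb6, Psmc6, Psmd12 and Psme4), 0 of the 5 lower genes and 1 of the 10 that did not pass (Psmd9). The interferon-response letters occurred in 5 genes (13.2%, against 3.44% and 2.98%), namely Psme1, Psmg4, Psmb3, Psmd4 and Psmd9. CCAAT occurred in 34.2% of the genes (37.4% and 37.6%). The proteasome share is per gene and the others per window. A match is a description of letters and not of a bound site.

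In the alpha ring 4 of 8 genes rose, 2 fell and 2 did not pass, a share called near the 69.3% of all tested genes. From here on, library values are in the order of replicates 4, 5 and 6, male before female, and the first number in parentheses is the log2 fold change, female minus male. Psma7 encodes alpha4, and its normalized read count was 102, 107 and 105 in male replicates 4, 5 and 6 and 141, 142 and 142 in female replicates 4, 5 and 6. Every female value was above every male value, with 0.44 as log2 fold change (SE 0.05, limma adjusted p 0.000124). Psma4, which encodes alpha3, stood at 109, 112 and 108 against 131, 137 and 137, also with no overlap (0.30, SE 0.05, limma adjusted p 0.00118). Psma3 (alpha7, 0.23) and Psma1 (alpha6, 0.21) were higher by smaller amounts. Psma6, which encodes alpha1, went the other way, with 130.2, 143 and 146 in the male and 105, 113 and 111 in the female libraries (-0.35, SE 0.07, limma adjusted p 0.0016). Psma8 encodes the alpha4 form of the testis and was weakly expressed, at 5.43, 5.76 and 5.97 against 3.98, 4.199 and 4.37, again lower in each female library (-0.37, limma adjusted p 0.00953).

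Psma2 and Psma5 did not pass. Psma2 (alpha2) read 129, 131 and 129.6 against 135, 141 and 138, a log2 fold change of 0.08 with a 95% interval of -0.04 to 0.20. Psma5 (alpha5) read 89.99, 93.7 and 98.98 against 84.8, 87.6 and 92.2 with overlapping groups (-0.09, interval -0.24 to 0.05), and 49.1% of its 50-base stretches also occur in other genes, so its value is uncertain. With a correction for transcript length and GC content, Psma1 (0.09) and Psma3 (0.04) no longer passed and Psma2 was called lower (-0.18), whereas with quantile normalization Psma2 was called higher (0.16). Without female replicate 5 Psma1 (0.18) was not called either.

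In the beta ring 3 of 7 genes rose, 2 fell and 2 did not pass, which is also near the 69.3% called over all tested genes and is not a result about the ring. The 3 constitutive catalytic subunits are Psmb6 (beta1, caspase-like), Psmb7 (beta2, trypsin-like) and Psmb5 (beta5, chymotrypsin-like). Psmb5 was at 41.4, 49.99 and 48.1 in the male and 68.4, 63.6 and 57.2 in the female libraries, with no overlap (0.43, SE 0.10, limma adjusted p 0.00366). Of its 50-base stretches 54.1% occur in other genes such as Gm3375, so its level is uncertain. Psmb6 was at 77.7, 74.4 and 72.2 against 92.5, 93.9 and 90.1, higher in each female library (0.30, limma adjusted p 0.00188). Psmb7 was at 97.8, 103 and 109 against 112, 118 and 101, and these groups overlapped (0.09, interval -0.08 to 0.26, limma adjusted p 0.301). The catalytic genes thus differed in whether they passed, which is no test of a difference among them.

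Non-catalytic beta genes moved in both directions. Psmb3 (beta3) was at 56.6, 63.98 and 66.2 against 91.6, 88.1 and 85.8, the largest increase of the ring (0.50, SE 0.07, limma adjusted p 0.000382). Of the 50-base stretches of Psmb3, 17.8% occur in other genes. Psmb1 (beta6) was lower in each female library, at 148, 159 and 162 against 118, 126 and 127 (-0.33, SE 0.06, limma adjusted p 0.00141). Psmb4 (beta7) was at 89.7, 93.99 and 103 against 86.5, 84.8 and 76.1 (-0.21, limma adjusted p 0.0384). That call was lost without male replicate 5, male replicate 6, female replicate 4, female replicate 5 or female replicate 6 (-0.24 to -0.15). It was also lost with quantile normalization (-0.17), the GC content and length correction (-0.11) and replicate number as a block in the fit (-0.21). Psmb2 (beta4), at 111, 113 and 105 against 104, 102 and 103, did not pass (-0.09, interval -0.22 to 0.04).

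All 6 ATPases of the base rose, by log2 fold changes of 0.17 to 0.41, and for each the female values lay above the male values. Over all tested genes 34.6% were called higher and 37.1% had every female value above every male value. Psmc3 (Rpt5) rose most, from 178, 172 and 159 to 227, 226 and 223 (SE 0.06, limma adjusted p 0.000403). Psmc4 (Rpt3) rose from 92.9, 96.6 and 91.5 to 113, 120.5 and 116 (0.31, limma adjusted p 0.00137). Psmc1 (Rpt2, 0.27), Psmc6 (Rpt4, 0.25), Psmc5 (Rpt6, 0.17) and Psmc2 (Rpt1, 0.17) followed. The smaller 3 depended on single libraries. Psmc2 was not called without male replicate 5, female replicate 4 or female replicate 5 (0.15 to 0.17). Psmc5 was not called without male replicate 5, female replicate 5 or female replicate 6 (0.16), and Psmc6 not without female replicate 5 (0.24). With replicate number as a block in the fit, Psmc2 (0.17) and Psmc5 (0.17) were not called either. Psmc6 was below 0 with the length and GC content correction (-0.14, not called).

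Of the 3 other base genes 1 rose, beside 34.6% of all tested genes called higher, so the count is not a result about them. Psmd1 encodes the scaffold Rpn2 and went from 241, 236 and 228 to 294, 308 and 300.3 (0.35, SE 0.05, limma adjusted p 0.000509), with no overlap. Psmd2 encodes Rpn1, which docks ubiquitin shuttles, and had the highest read count of the 46, not adjusted for length, at 385, 335 and 351 against 409, 405 and 387. Its groups did not overlap, but it did not pass (0.17, interval 0.01 to 0.32, limma adjusted p 0.056). It was called without male replicate 4 (0.22), with quantile normalization (0.25) and with the GC content and length correction (0.26). Psmd4 encodes the ubiquitin receptor Rpn10 and read 122, 117 and 117 against 125, 129 and 119 (0.07, interval -0.07 to 0.20), called only with the length and GC content correction (0.22).

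The lid held the largest increases among structural subunits. Psmd8 encodes Rpn12, the subunit that joins the lid late in its assembly, and read 194, 182 and 177 in the male and 355, 342 and 324 in the female libraries. The lowest female value was far above the highest male value (0.88, SE 0.06, limma adjusted p 5.47e-06). Psmd6 (Rpn7) read 55.8, 54.4 and 51.1 against 98.7, 91.3 and 91.04 (0.79, SE 0.07, limma adjusted p 1.34e-05). Psmd7 (Rpn8) forms a pair with the deubiquitinase Rpn11 and read 167 ± 1.59 against 103 ± 2.78 (SD, n = 3, female against male), a log2 fold change of 0.69. Psmd14, which encodes Rpn11 itself, rose less (0.25), as did Psmd13 (Rpn9, 0.40) and Psmd12 (Rpn5, 0.39). Each of these 6 was called higher and had no overlap between labels. Over all tested genes 34.6% were called higher, and 37.1% had every female value above every male value. With the length and GC content correction Psmd14 no longer passed (0.13).

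A pair of lid genes did not pass. Psmd11 encodes Rpn6, which clamps the lid to the core, and read 149.998, 146 and 154 against 155, 157 and 159 (0.06, interval -0.06 to 0.19), called higher only with quantile normalization (0.15). Psmd3 (Rpn3) read 137, 137 and 131 against 131, 129 and 122 with overlap (-0.08, interval -0.22 to 0.05). The intervals of both lie below the fold changes of Psmd6, Psmd7 and Psmd8, although differences between genes were not tested.

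Activators were called in both directions. Psme1 and Psme2 encode PA28 alpha and beta, the cytosolic activator that interferon induces, and both fell. Psme1 was at 67.8, 69.1 and 71.8 in the male and 35.4, 36.998 and 42.7 in the female libraries, 55.2% of the male mean (-0.85, SE 0.08, limma adjusted p 3.19e-05). Psme2 was at 36.7, 37.3 and 40.6 against 25.1, 24.8 and 30.4 (-0.50, SE 0.10, limma adjusted p 0.00167). Psme3 encodes the nuclear PA28 gamma and rose from 75.97, 91.1 and 87.3 to 129.9, 123 and 125 (0.57, SE 0.08, limma adjusted p 0.000232). Psme4 encodes PA200, a nuclear activator, and rose from 141, 114 and 115 to 225, 241 and 242 (0.93, SE 0.09, limma adjusted p 2.85e-05). In none of these 4 did the groups overlap, and 74.1% of all tested genes likewise had groups that did not overlap. Each of the 4 kept its direction and call under all 16 alternatives. Psme1 stood at 0.759 to 0.892 of Psme3 in the male libraries and at 0.273 to 0.343 in the female libraries, a ratio of read counts not adjusted for length. Psmf1 encodes PI31, described as a proteasome inhibitor, and did not pass at 25.9, 29.6 and 30.1 against 25.8, 24.6 and 23.8 (-0.20, interval -0.39 to -0.0013), but was called lower without male replicate 4 (-0.26).

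Psme2b, a gene nearly identical to Psme2 in coding sequence, read 4.396, 4.08 and 3.81 against 9.92, 10.96 and 10.2 and was called higher (1.16, SE 0.10, limma adjusted p 1.75e-05), opposite to Psme2. The coding sequences of the pair (GENCODE M21) align over 717 bases with 5 differences, an identity of 99.3%, and share an identical run of 311 bases. Coding bases 484 to 543, the stretch of 60 bases with the most differences, show how few letters separate them, with differing bases in capitals:
Psme2: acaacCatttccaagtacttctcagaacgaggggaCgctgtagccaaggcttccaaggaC
Psme2b: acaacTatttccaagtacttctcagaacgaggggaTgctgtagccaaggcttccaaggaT
Over their transcripts, 69.3% of the 50-base stretches of Psme2b and 28.3% of those of Psme2 occur in other genes, so their separate values are uncertain. Added together, Psme2 and Psme2b read 41.1, 41.4 and 44.4 in the male and 35.0, 35.8 and 40.6 in the female libraries, with each female sum below each male sum and a female mean at 87.8% of the male mean.

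**Figure D4:**
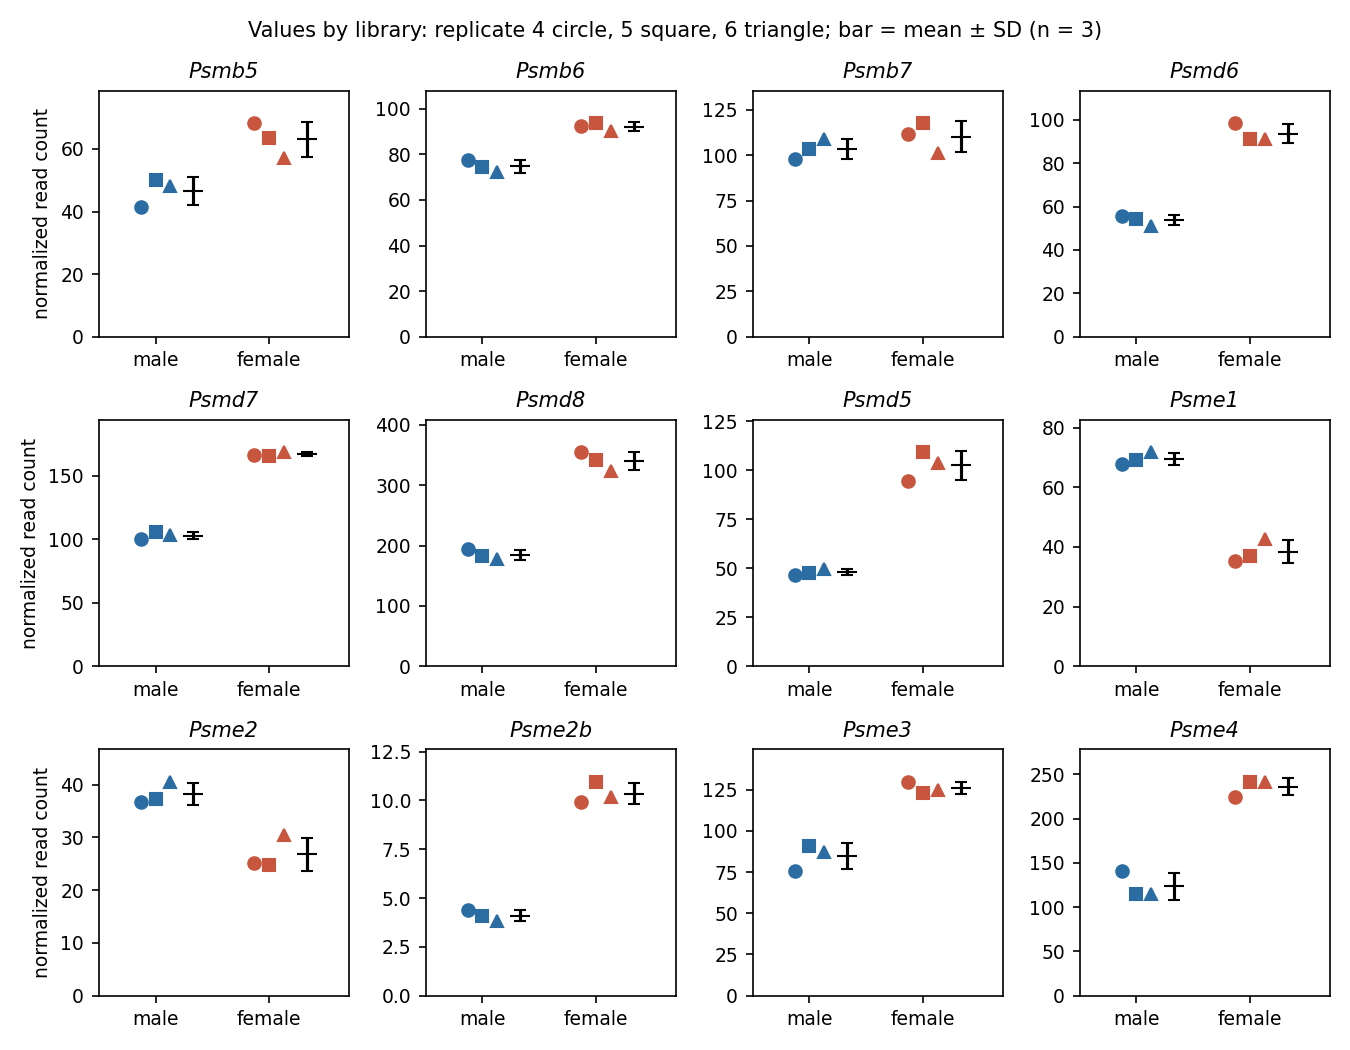
Normalized read count (vertical axis from 0) of 12 proteasome genes in each library, with the mean and SD of the 3 libraries of each label beside the points. Psmb7 overlaps between labels, Psme1 and Psme2 are lower in the female libraries, and the other 9 genes are higher there.

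Among the 7 assembly factors 2 rose, 2 fell and 3 did not pass, a share called not above the 69.3% of all tested genes. Psmd5 encodes S5b, a chaperone of the base, and rose from 46.7, 47.8 and 49.5 to 94.7, 109 and 104, 2.14 times the male mean (1.08, SE 0.07, limma adjusted p 3.52e-06). The other base chaperones did not pass: Psmd9 (p27) read 24.4, 30.6 and 26.98 against 24.98, 26.7 and 23.9 (-0.11, interval -0.33 to 0.12). Psmd10 (gankyrin) read 18.2, 17.6 and 17.3 against 15.6, 18.1 and 17.2, also overlapping (-0.06, interval -0.26 to 0.14).

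Psmg1 to Psmg4 encode PAC1 to PAC4, which work as pairs in building the alpha ring. Psmg2 was at 14.9, 15.1 and 18.2 against 13.3, 13.3 and 11.3 (-0.32, limma adjusted p 0.0314), and its partner Psmg1 at 14.3, 14.98 and 16.7 against 12.8, 13.1 and 13.9 did not pass (-0.19, interval -0.41 to 0.02). Psmg4 was at 3.898, 5.53 and 4.91 against 3.403, 3.45 and 3.13 (-0.41, limma adjusted p 0.0219), and its partner Psmg3 was higher at 2.99, 4.42 and 4.94 against 4.98, 7.43 and 6.17 (0.50, limma adjusted p 0.0384). The groups did not overlap for any of the 4, nor did they for 74.1% of all tested genes. Values of the 4 were low and the calls depended on single libraries. Psmg2 was not called without male replicate 6 or any 1 of the female replicates 4, 5 and 6 (-0.35 to -0.23). It was also not called with quantile normalization (-0.24) or with replicate number as a block in the fit (-0.32). Psmg3 was not called without male replicate 4, male replicate 5, female replicate 5 or female replicate 6 (0.33 to 0.55), nor Psmg4 without male replicate 5, male replicate 6 or any 1 of female replicates 4, 5 and 6 (-0.43 to -0.31). Psmg1 was called without male replicate 4 (-0.24). Psmc3ip, the recombination cofactor caught by the name pattern, read 3.44, 4.16 and 3.14 against 3.65, 2.96 and 3.42 and did not pass (-0.07, interval -0.36 to 0.22).

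To compare genes with each other, means were divided by the length in kilobases of the longest coding transcript (GENCODE M21). The 31 standard core, base and lid genes had a median level of 76.1 per kilobase in the male and 80.9 in the female libraries. In the male libraries they ran from 32.5 (Psmd13) to 134 (Psma6). In the female libraries they ran from 43.2 (Psmd13) to 172 (Psmd8, which was at 93.1 in the male libraries). Per kilobase of coding sequence the extremes were other genes in the male libraries, at 46.1 (Psmd6) and 257 (Psmb1), and the same genes in the female libraries, at 76.1 (Psmd13) and 448 (Psmd8). Per kilobase of transcript, the assembly factors were far less abundant, with a median of 10.9 in the male libraries and 9.74 in the female, and Psma8 stood at 3.38 and 2.47. PA28 gamma (Psme3) was at 31.8 and 47.3 per kilobase, PA200 (Psme4) at 19.04 and 36.3, and PA28 alpha (Psme1) at 62.6 and 34.5. The order of these 3 depends on the length used: per kilobase of coding sequence Psme3 was at 111 and 165, Psme4 at 22.4 and 42.7, and Psme1 at 93.1 and 51.4.

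**Figure D5:**
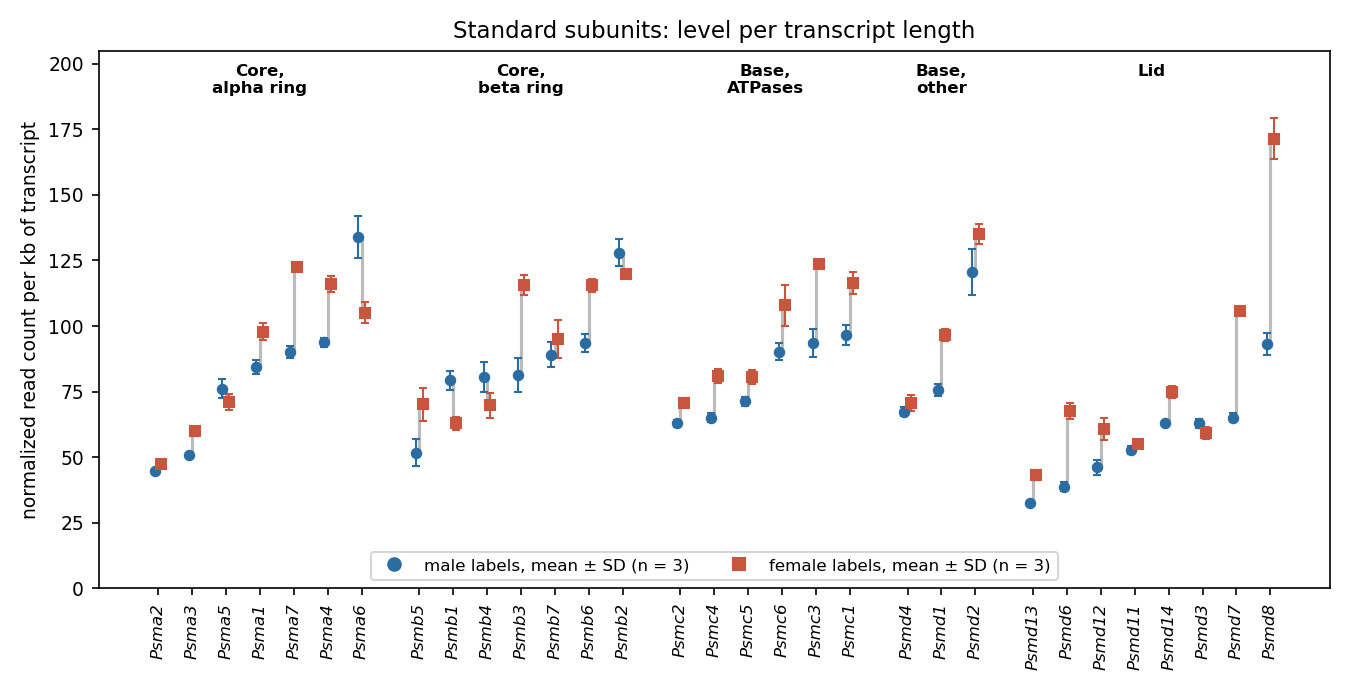
Mean normalized read count per kilobase of transcript (vertical axis from 0) of the 31 standard subunits, with SD over 3 libraries, male labels as circles and female labels as squares. Per transcript length Psmd8 has the highest level in the female libraries and Psma6 in the male libraries, where Psmb1 is highest per coding length.

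The immunoproteasome subunits replace the catalytic subunits one for one and are given for context. Psmb8, the counterpart of Psmb5, read 52.9, 53.8 and 57.1 in the male and 6.72, 4.91 and 8.12 in the female libraries (-2.90). Psmb9, the counterpart of Psmb6, read 8.63, 10.7 and 11.9 against 0.498, 0.442 and 0.665 (-2.89), and Psmb10, the counterpart of Psmb7, read 12.2, 12.7 and 13.03 against 4.73, 4.597 and 5.604 (-1.20). Psmb8 was at 1.08 to 1.28 times the read count of Psmb5 in the male libraries and at 0.0772 to 0.142 times in the female libraries. These ratios are not adjusted for length and rest on the uncertain level of Psmb5. Per kilobase of transcript Psmb8 was at 33.5 and 4.04 and Psmb5 at 51.7 and 70.1, male before female. Psmb9 was at 0.111 to 0.164 times Psmb6 in the male and 0.00471 to 0.00738 times in the female libraries. Psmb10 was at 0.120 to 0.125 times Psmb7 in the male and 0.0390 to 0.0554 times in the female libraries. All 3 immunoproteasome subunits were called lower, as were 34.6% of all tested genes.

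Of 12 proteasome partners outside the naming pattern, 11 were tested, 4 were higher, 2 lower and 5 did not pass (median log2 fold change 0.16). With 34.6% of all tested genes higher and 69.3% called, these counts are not a result about the partners. Paaf1 was not analysed here. Adrm1, the base ubiquitin receptor Rpn13, read 61.7, 70.6 and 67.2 against 83.5, 84.03 and 80.1 (0.31, limma adjusted p 0.00364). Pomp, the chaperone of core maturation, read 64.4, 67.9 and 65.3 against 80.4, 82.6 and 83.4 (0.31, limma adjusted p 0.00131). The deubiquitinases Uchl5 (23.1, 21.4 and 21.6 against 39.3, 38.8 and 42.4, 0.84) and Usp14 (0.38) were the largest increases. The stress-induced Zfand2a was the largest decrease, at 102, 119.5 and 137 against 43.9, 42.04 and 36.7 (-1.52, limma adjusted p 7.67e-06), followed by Zfand5 (-0.38). Among the 5 shuttle receptors that carry ubiquitinated proteins to the proteasome, 3 were higher and 0 lower (median 0.49, beside 34.6% higher and 34.6% lower over all tested genes), led by Ubqln4 (0.68) and Ubqln2 (0.50).

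Nfe2l1 encodes NRF1, the transcription factor known to raise proteasome genes when proteasome activity is short. It read 425, 379.5 and 385 in the male and 485, 485 and 471 in the female libraries, with no overlap (0.28, SE 0.06, limma adjusted p 0.0044). Of the 13 genes listed for its route, all tested, 7 were higher, 3 lower and 3 did not pass (median 0.26), beside 69.3% called and 34.6% in each direction over all tested genes. The partner Mafk (1.14) and the ubiquitin ligase subunit Fbxw7 (0.94) rose most. Ddi2, the protease that cleaves NRF1 into its active form, was lower at 62.3, 59.2 and 57.8 against 48.9, 44.96 and 46.5 (-0.35, limma adjusted p 0.00162), and so was Ngly1, the enzyme that removes its glycans (-0.31). Of 6 genes of ubiquitin and its activating enzymes, all tested, 2 were higher, 3 lower and 1 did not pass (median -0.19). Over all tested genes 34.6% were higher and 34.6% lower. The 2 higher were the activating enzymes, Uba6 from 15.6, 24.4 and 20.2 to 62.9, 63.5 and 68.8 (1.67, limma adjusted p 1.54e-05) and Uba1 by a smaller amount (0.30). Rps27a, which encodes ubiquitin fused to a ribosomal protein, fell by 0.24 on the log2 scale.

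Of the 46 genes, 5 (10.9%) had in the authors' deposited table a false discovery rate under 0.05, against 25.8% of all genes there. The authors' deposited table gives signed fold changes of 2.14 for Psmd5 (false discovery rate 6.13e-05), 1.84 for Psmd8 (0.00298), 1.74 for Psmd6 (0.00368), 1.62 for Psmd7 (0.0173) and -1.81 for Psme1 (0.0275). For Psme4 the authors' deposited table gives 1.91 with a false discovery rate of 0.097, and for Psme3 1.49 with 0.0645. The direction in the authors' deposited table was that of the limma fit for all 46 genes.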

How the data were processed

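The submitters' processing notes name Bowtie2, RSEM, edgeR and the build mm39 with no role or order. The deposited signal is a normalized read count per gene for each of 6 libraries. Dividing a library by its smallest value above 0 gave whole reads for 100% of values (tolerance 0.01). The authors' deposited score is a signed fold change of female against male, and the deposited p-value columns are their test's p and its false discovery rate, as the file headers name them. From these, genes at 1 or above in 3 or more libraries were tested on log2(value + 1) by limma 3.58.1 (moderated with an intensity trend, R 4.3.3), with Benjamini-Hochberg adjustment and a threshold of 0.05. Fold changes on this scale understate changes of weak genes. The fit was tested on simulated data. Alternatives included edgeR 4.0.16 (8975 of 13199 genes called), DESeq2 1.42.0 and voom on recovered reads. The members and lists were chosen with earlier results of these data known. Named genes were every member, with library values for the 2 largest changes in each direction per role, the catalytic subunits, the activators, Psmc3ip and members not past the threshold, and for the largest changes in each pathway list. Some listed items are not reported here. Shared sequence is the percent of a gene's 50-base stretches found in transcripts of other genes (GENCODE M21, GRCm38), and 9 of 46 genes exceeded 10%. These 9 were Psma3, Psma4, Psma5, Psmb3, Psmb5, Psmc1, Psmd2, Psme2 and Psme2b. Sem1, Ecpas, Ufd1 and Adgre1 were found under the older symbols Shfm1, AI314180, Ufd1l and Emr1.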

Additional observations from a re-analysis of the deposited data

How the results depend on the processing

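Results were recomputed under 16 alternatives, of which 10 used all 6 libraries and 6 left out 1 library each. The count of 8704 genes called over the whole table ran from 8236 to 9085 with 6 libraries and from 7373 to 9113 in the fits that left out 1 library. The 25 proteasome genes called higher were 23 to 28 with 6 libraries and 20 to 25 with 1 left out. The 8 called lower were 6 to 8 with 6 libraries and 5 to 10 with 1 left out, at 5 without male replicate 6 or any 1 of the female replicates and 10 without male replicate 4. The median log2 fold change of the 46 genes (0.19) was 0.26 with quantile normalization, which also moved the median of all tested genes to 0.08 and the share of calls that were higher to 55.4%, and 0.14 with the correction for GC content and length. It ran from 0.18 to 0.21 with 1 library left out. Same-numbered libraries did not deviate together (correlations of deviations from the group means -0.09, -0.03 and -0.17), so the numbers were not taken as pairs. With the replicate block 8314 genes were called, and 23 proteasome genes were higher and 6 lower. Psmb4, Psmc2, Psmc5 and Psmg2 were not called with the block. Among the 33 called genes, 25 kept direction and call in all 10 alternatives with 6 libraries and 23 in all 16. Of 736 values recomputed for single genes, 686 kept both, 36 lost the call, 8 gained it and 6 reversed. Reversed were Psma2 (-0.18), Psmc6 (-0.14), Psmd3 (0.12) and Psmd9 (0.026) under the GC content and length correction, Psmd10 (0.017) with quantile normalization and Psmc3ip (0.015) without male replicate 5. The cause was not tested. The sums of markers without Lyve1 or Mki67 were added after seeing the data. Per kilobase of coding sequence, also chosen after seeing the data, the median level of the 31 standard subunits was 119 in the male and 133 in the female libraries. Depth limits Psmg3, Psmg4, Psma8 and Psmc3ip most, which had the fewest reads.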
